A study of Mus musculus with 6 samples.

Results

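The SOCS and PIAS genes encode the inhibitors that cytokine-stimulated cells set against JAK-STAT signaling. The family was taken as 10 genes, Socs1 to Socs7, Cish, Pias1 and Pias3, out of 19933 genes measured on the arrays. All 10 had at least 1 probe set with a single gene symbol, and where a gene had several the brightest, by its average on the 6 arrays, stood for it. MR13 cells are 4T1 cells, a mouse mammary carcinoma line, that outlived selection with methotrexate (MTX), a folate antagonist. In the labels the MTX was at 13 µg/ml and lasted at most 2 weeks, but the text of the study describes a far lower concentration and longer selection, after which survivors went back to drug-free medium, so the dose is not settled here. WTR- cells are untreated 4T1 cells. There were 3 MR13 and 3 WTR- arrays, made from total RNA of triplicate wells, so p values measure the spread between wells of a single selected line and its parent and not between independent selections.

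SOCS proteins share an SH2 domain, which binds phosphorylated tyrosines on receptors or kinases, and a SOCS box, which recruits elongins B and C with a cullin ubiquitin ligase and marks the bound protein for degradation. SOCS1 and SOCS3 also carry a short inhibitory region that blocks JAK kinases directly. Because STAT factors induce several of these genes, the proteins act as feedback brakes on the cytokines that raised them. PIAS proteins work in the nucleus, where they bind STATs and attach SUMO to STATs and other transcription factors. In mammary epithelium, prolactin and growth hormone signal through JAK2 and STAT5, and IL-6 type cytokines through gp130 and STAT3.

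The arrays report 1 log2 value for each probe set, normalized between arrays by the authors. A gene was called when its limma p, adjusted over all genes, was under 0.05. MR13 and WTR- differed by this rule in 37.6% of all genes, with 17.0% higher in MR13 and 20.6% lower, so a share of members is read against these figures. Dim genes were called less often. Without the dimmest 30% of genes, 54.8% of the remaining genes were called, so 37.6% is a low reference for lists of brighter genes. Across probe sets, the correlation was 0.9980 to 0.9987 within a group and 0.984 to 0.987 between an MR13 and a WTR- array, which describes the arrays only, since genes are not independent. Of 8 epithelial markers, 7 were lower in MR13, while Krt8 averaged 13.53 in MR13 and 13.41 in WTR-. Of 7 leukocyte markers, 2 were higher (Cd68 and Ly6g), with a summed signal of 9.67 to 9.73 on the log2 scale in MR13 and 9.39 to 9.48 in WTR-, and Ptprc, which defines leukocytes, averaged 5.22 in MR13 and 5.17 in WTR-, below the 30th percentile of genes on every array (5.42 to 5.53). Of 8 endothelial and fibroblast markers, 3 were higher (Acta2, Dcn and Pdgfra), with a summed log2 signal of 10.57 to 10.74 in MR13 and 9.24 to 9.37 in WTR-, while Pecam1, the endothelial marker, averaged 5.16 in MR13 and 5.13 in WTR-. The part of these marker differences in the results for the inhibitors was not tested. In RNA from whole wells, fewer cells that express a gene and less RNA per cell cannot be told apart.

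The inhibitors did not move as a block. Of the 10 members, 5 rose in MR13 (Socs3, Pias1, Pias3, Socs5 and Socs6), 3 fell (Socs2, Socs4 and Socs7) and 2 did not pass the test (Socs1 and Cish), against 37.6% of all genes called. All 10 lay above the 44th percentile of genes on every array. Without the dimmest 30% of genes, the share called was 54.8%. The same 8 genes had no overlap between their MR13 and WTR- values, against 47.4% of all genes. Their differences ran from 1.84 for Socs3 to -1.60 for Socs2 on the log2 scale, with a median of 0.20 over the 10 members and 0.0096 over all genes. Beyond 1.5-fold, 2 members rose and 1 fell, where 4.65% of all genes rose and 6.36% fell by that rule. Those 3 were Socs3, Pias1 and Socs2.

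**Figure D1:**
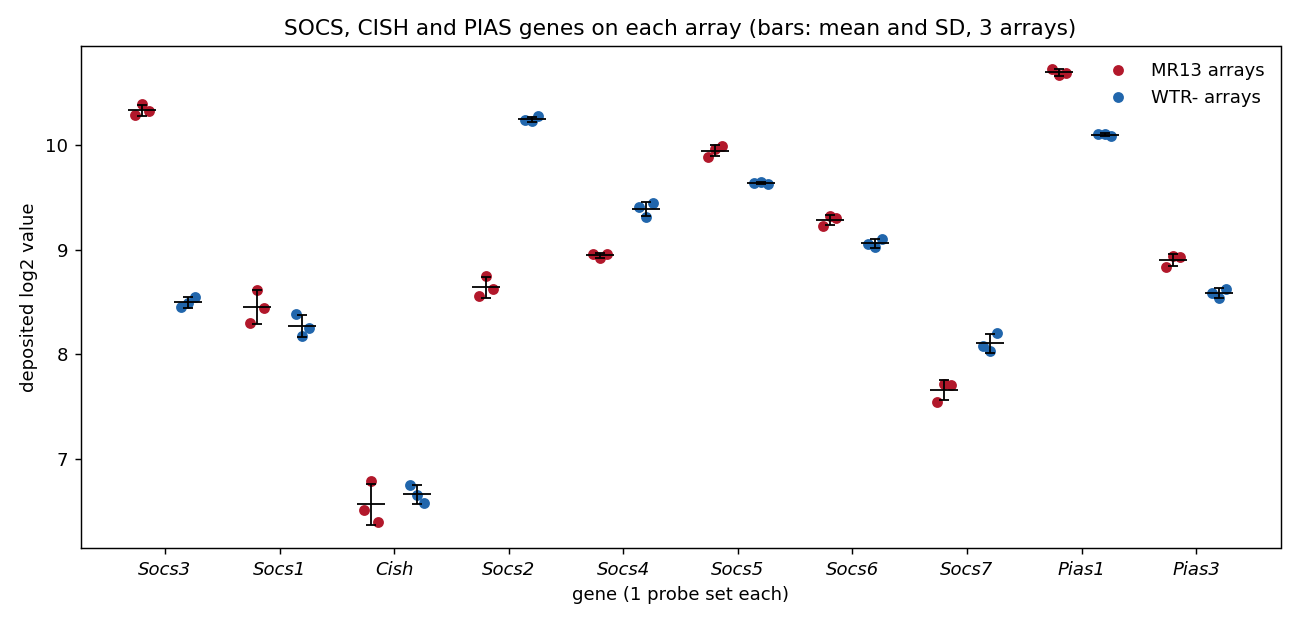
Deposited log2 values (y axis) of the 10 genes (x axis) on the 3 MR13 arrays (red) and the 3 WTR- arrays (blue), with mean and SD in black. Socs3 is apart by 1.84 and Socs2 by 1.60 in the opposite direction, and only Socs1 and Cish overlap between the groups.

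The inhibitors that act on JAK kinases came apart. Socs3, which binds gp130, the leptin receptor and their kinases and limits signaling by IL-6 type cytokines, had the largest difference of the family. Its values were 10.28, 10.39 and 10.32 on the MR13 arrays, against 8.45, 8.49 and 8.55 on the WTR- arrays. The lowest MR13 value lay 1.73 above the highest WTR- value, so the groups were far apart and each was tight. The mean was 10.33 ± 0.05 in MR13 and 8.50 ± 0.05 in WTR- (SD, n = 3 each), a 3.57-fold rise in signal (log2 difference 1.84, 95% CI 1.71 to 1.96, limma adjusted p = 3.91e-08). Among all 19933 genes, 227 had a difference at least as large in either direction, which is 1.14%, and Socs3 ranked 109th of those higher in MR13. The gene lies on mouse chromosome 11, from 117966079 to 117970336 in GRCm38.p6.

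Socs1, the main brake on interferon γ signaling, gave no such difference. Its values were 8.30, 8.62 and 8.45 on the MR13 arrays, against 8.39, 8.18 and 8.25 on the WTR- arrays. The lowest MR13 array fell inside the WTR- range, while the other two MR13 arrays lay above it. The log2 difference was 0.18 (95% CI -0.02 to 0.38, adjusted p = 0.16 by limma), so a rise of more than 0.38 or a fall of more than 0.02 lies outside the interval. When the deposited values were quantile normalized again, the difference was 0.25 with an adjusted p of 0.029. Socs1 lies on chromosome 16, from 10783808 to 10785536.

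Cish, the founding member of the family and a gene that STAT5 induces after prolactin, growth hormone and other cytokines, did not pass the test either. It had values of 6.51, 6.79 and 6.40 on the MR13 arrays and 6.75, 6.66 and 6.58 on the WTR- arrays. The MR13 arrays lay on both sides of the WTR- range, and the log2 difference was -0.10 (95% CI -0.32 to 0.13, adjusted p = 0.51). Cish and Socs1 had the widest spread among the members. The pooled within-group SD was 0.15 for Cish and 0.14 for Socs1, against a median of 0.08 over all genes and 0.02 to 0.09 for the other members. Cish lies on chromosome 9, from 107296659 to 107302784.

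Promoter sequence was read for the members that the RefSeq promoter table of GRCm38.p6 lists. Of the 10 members 6 had an entry there, namely Cish, Pias1, Pias3, Socs1, Socs3 and Socs4, with 7 windows in all, and Socs2, Socs5, Socs6 and Socs7 had none. Each window runs from 250 bases before the table's transcription start to 50 bases after it. The STAT-type motif TTCNNNGAA, which reads the same on both strands, was found in 2 of the 7 windows, those of Socs3 and Cish, against 8.30% of all 32851 promoters. A repeat of GAAA with any 2 bases between the copies, as in interferon response elements, was searched on both strands and found in Socs1 alone, against 3.44% of all promoters. The 3 sequences below are shown because they belong to the JAK-binding inhibitors and to Cish, one of which rose while the others did not pass the test. Capitals mark the motif matches, and each sequence runs 5′ to 3′ along the gene's strand.
Socs3, chr11:117969367-117969616, minus strand, 250 bases before the start: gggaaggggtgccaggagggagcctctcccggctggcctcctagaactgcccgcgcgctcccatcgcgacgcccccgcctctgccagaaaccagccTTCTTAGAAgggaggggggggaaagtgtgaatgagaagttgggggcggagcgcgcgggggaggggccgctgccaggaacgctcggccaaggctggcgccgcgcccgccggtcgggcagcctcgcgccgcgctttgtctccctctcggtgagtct
Socs1, chr16:10785537-10785786, minus strand, 250 bases before the start: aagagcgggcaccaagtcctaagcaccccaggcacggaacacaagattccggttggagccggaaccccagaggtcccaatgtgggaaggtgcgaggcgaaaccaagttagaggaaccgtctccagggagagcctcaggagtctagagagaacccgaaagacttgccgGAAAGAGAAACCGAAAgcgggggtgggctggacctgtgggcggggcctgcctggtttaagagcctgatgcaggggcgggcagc
Cish, chr9:107296654-107296683, plus strand, 30 bases across the start: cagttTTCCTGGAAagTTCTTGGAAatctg
The match in Socs3 begins at base -154, counted back from the start. In Cish a pair of matches begins at bases 1 and 12 of the transcript. In Socs1 a pair of overlapping matches begins at bases -83 and -77. The annotated interval of Socs3 reaches to 117970336, beyond its window, so the window lies inside the interval of a longer transcript. The sequence before the start of that longer transcript was not read. A match describes the letters of the window only, and binding by STATs or interferon regulatory factors was not measured here.

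Socs2, which restrains growth hormone receptor signaling and is itself induced through STAT5, moved in the direction opposite to Socs3. Its values were 8.56, 8.75 and 8.62 on the MR13 arrays, against 10.23, 10.23 and 10.28 on the WTR- arrays. No array of the groups came within 1.48 of one from the other group. The mean was 8.64 ± 0.10 in MR13 and 10.25 ± 0.03 in WTR- (SD, n = 3 each), a 3.04-fold lower signal (log2 difference -1.60, 95% CI -1.75 to -1.46, adjusted p = 1.69e-07). Only 1.55% of all genes differed by at least as much, and Socs2 ranked 152nd of the genes lower in MR13. A second, dimmer probe set of Socs2 fell by less (-1.12, 2.17-fold lower), so the size of the fall depends on the probe set. Socs2 lies on chromosome 10, from 95383903 to 95417321, where a non-coding gene overlaps it. Whether either probe set lies at that position was not checked. Cish and Socs2 are paralogs that share STAT5 as an inducer, and the interval of the Cish signal leaves out a fall as large as that of Socs2. Cish was the dimmest member and was not shown to be above background, so a larger fall of its transcript is not left out.

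**Figure D2:**
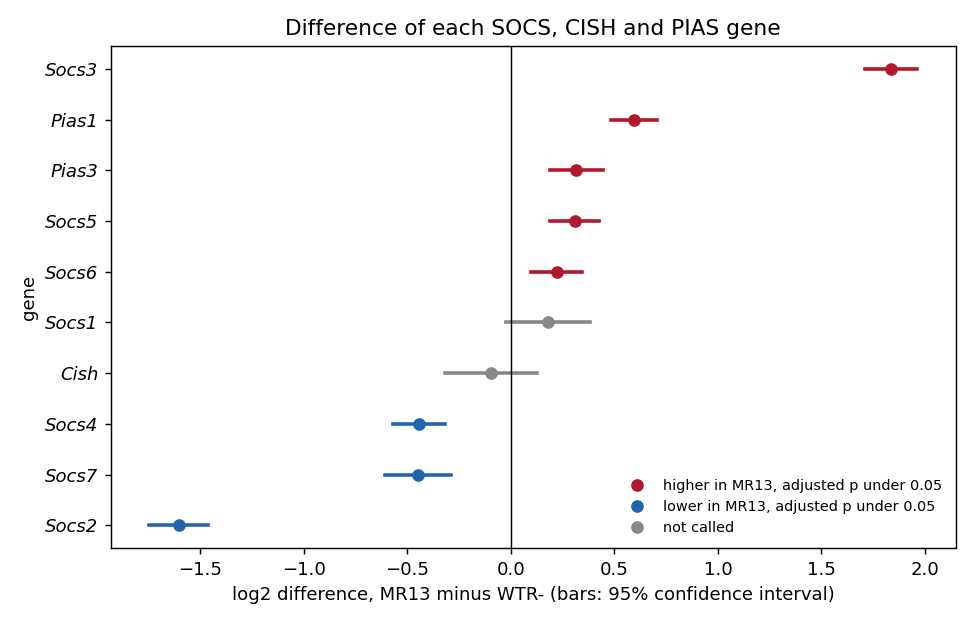
The x axis gives MR13 minus WTR- on the log2 scale with the 95% confidence interval from limma, the y axis the 10 genes, and colors whether the adjusted p was under 0.05. Socs3 stands at 1.84 and Socs2 at -1.60, the other called genes lie between -0.45 and 0.59, and the intervals of Socs1 and Cish cross 0.

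Socs4 to Socs7 have long N-terminal regions and are tied mostly to growth factor and insulin signaling. Their differences were small beside those of Socs3 and Socs2, and went both ways. SOCS4 and SOCS5 form a pair by sequence, and both have been linked to breakdown of the EGF receptor. Socs4 had values of 8.96, 8.92 and 8.96 on the MR13 arrays and 9.41, 9.31 and 9.44 on the WTR- arrays, 1.36-fold lower in MR13 (log2 difference -0.44, SE 0.06, adjusted p = 0.00022). Socs5 had values of 9.89, 9.97 and 9.99 on the MR13 arrays and 9.64, 9.64 and 9.63 on the WTR- arrays, 1.24-fold higher in MR13 (log2 difference 0.31, SE 0.05, adjusted p = 0.0012). The pair thus moved in opposite directions, with no overlap between groups for either gene. Socs4 lies on chromosome 14, from 47276920 to 47296102, and Socs5 on chromosome 17, from 87107278 to 87137647.

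SOCS6 and SOCS7 form another pair, which binds the insulin receptor and its substrates, and SOCS6 also binds the receptor KIT. Socs7 was 7.55, 7.72 and 7.70 on the MR13 arrays and 8.08, 8.03 and 8.21 on the WTR- arrays, 1.36-fold lower in MR13 (log2 difference -0.45, SE 0.07, adjusted p = 0.00087). Socs6 was 9.22, 9.32 and 9.30 on the MR13 arrays and 9.06, 9.02 and 9.11 on the WTR- arrays, 1.17-fold higher in MR13 (log2 difference 0.22, SE 0.05, adjusted p = 0.0098). This pair also came apart, although the rise of Socs6 was the smallest difference called in the family and left a gap of only 0.12 between the groups. Socs7 lies on chromosome 11, from 97362292 to 97398542. The call of Socs6 depended on the choice of probe set, as described next.

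Socs2, Socs3 and Socs6 had more than 1 probe set, and these were tested among all 28350 probe sets, of which 32.4% were called. For Socs3, the second probe set read 7.21, 7.17 and 7.10 on the MR13 arrays and 6.68, 6.60 and 6.32 on the WTR- arrays. It rose by 0.63 (1.54-fold, adjusted p = 0.0011), in the direction of the first probe set but by much less. For Socs2, the second probe set read 7.04, 7.06 and 7.29 on the MR13 arrays and 8.20, 8.31 and 8.24 on the WTR- arrays, and fell by 1.12 (2.17-fold lower, adjusted p = 1.54e-05). Both genes therefore kept direction and call, and both had the larger difference in the brighter probe set. Probe sets were paired with genes by the annotation alone, and where in the genome their probes lie was not checked.

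Socs6 was less settled. Its second probe set, which the annotation pairs with the accessions of the first, read 9.37, 9.01 and 9.21 on the MR13 arrays and 8.95, 8.95 and 8.93 on the WTR- arrays. All 3 MR13 values were above the WTR- values, but they were spread, and the difference of 0.26 (95% CI 0.05 to 0.46) had an adjusted p of 0.056. The third probe set of Socs6 averaged 3.16 in MR13 and 3.25 in WTR-, below the 10th percentile of the arrays (3.76 to 3.80). The mean of the 3 probe sets differed by 0.13 with an adjusted p of 0.082.

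**Figure D3:**
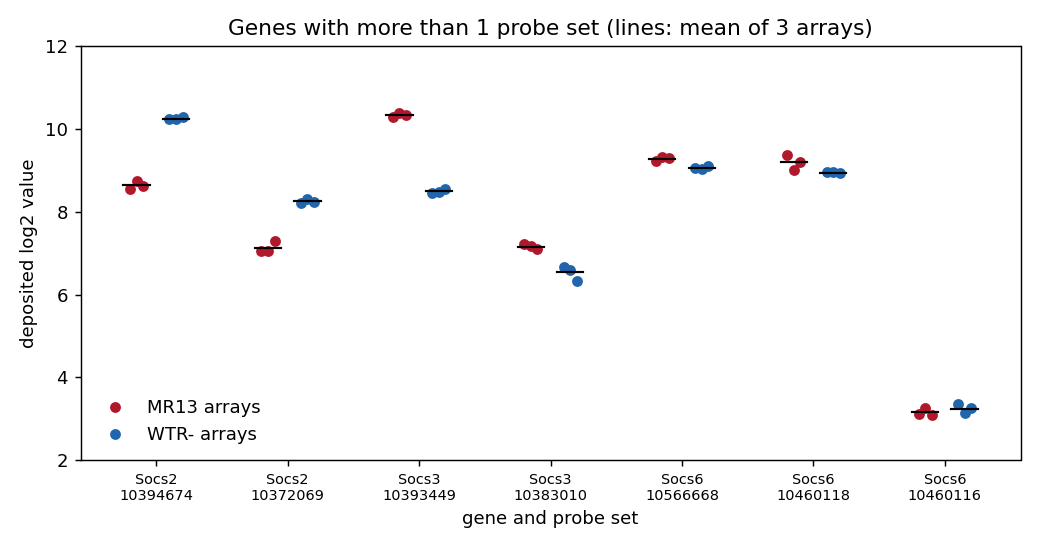
Deposited log2 values (y axis) of every probe set of Socs2, Socs3 and Socs6 (x axis, gene and probe set number) on MR13 (red) and WTR- (blue) arrays, with lines at the means of 3 arrays. Both probe sets of Socs2 are lower and both of Socs3 higher in MR13, while the dimmest Socs6 probe set averages 3.16 in MR13 and 3.25 in WTR-.

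Both PIAS genes rose. Pias1, a SUMO ligase that binds transcription factors, had values of 10.73, 10.67 and 10.69 on the MR13 arrays, against 10.11, 10.11 and 10.08 on the WTR- arrays. These were the tightest replicates in the family, with a pooled SD of 0.02, and the groups lay 0.56 apart. Pias1 was 1.51-fold higher (10.69 ± 0.03 in MR13 and 10.10 ± 0.02 in WTR-, SD, n = 3 each, log2 difference 0.59, 95% CI 0.48 to 0.71, adjusted p = 1.73e-05). Pias3, which binds STAT3, had values of 8.83, 8.94 and 8.93 on the MR13 arrays, against 8.59, 8.54 and 8.63 on the WTR- arrays, 1.25-fold higher (log2 difference 0.32, SE 0.06, adjusted p = 0.0017). Pias1 lies on chromosome 9, from 62878366 to 62980879, and Pias3 on chromosome 3, from 96696361 to 96706070. The annotation places Nudt17 partly over Pias3, and Nudt17 differed by -0.18 (adjusted p = 0.076), in the other direction. The relatives of these genes outside the 10 members, Pias2 and Pias4, differed by 0.06 (adjusted p = 0.40) and -0.18 (adjusted p = 0.042), and the call of Pias4 was lost without MR13 replicate 1 or 3 or any of the WTR- replicates (adjusted p = 0.064 to 0.11). It was also lost with the replicate block, after centring, after quantile normalization again and in the methods' t-test (adjusted p = 0.058 to 0.17).

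**Figure D4:**
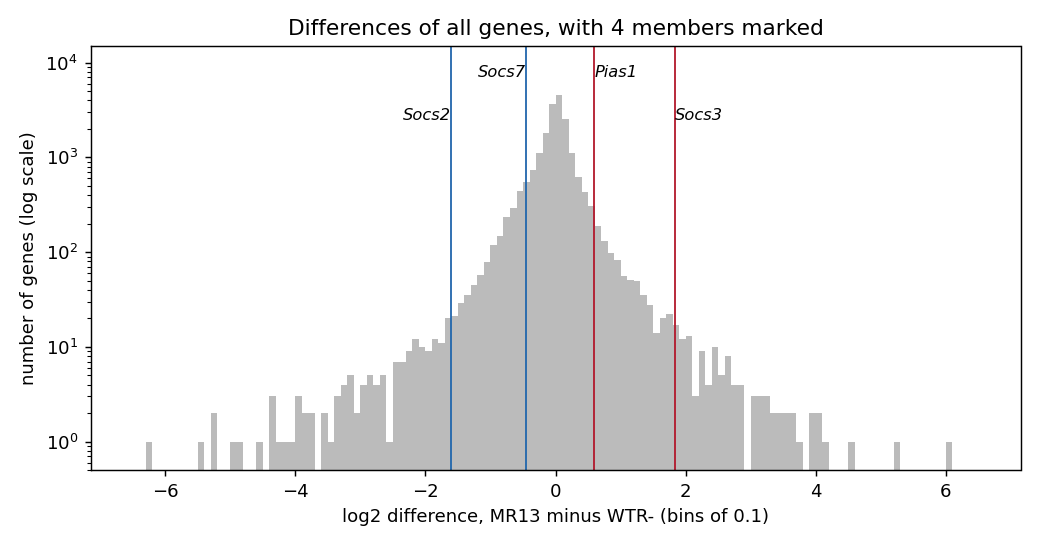
Number of genes (y axis, log scale) by log2 difference (MR13 minus WTR-, x axis, bins of 0.1) for all 19933 genes, with lines at Socs2 (-1.60), Socs7 (-0.45), Pias1 (0.59) and Socs3 (1.84). Socs3 and Socs2 lie in the sparse tails, and 1.14% and 1.55% of all genes differ by at least as much in either direction.

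Receptors and docking proteins that SOCS proteins are known to restrain were mostly higher. Of 22 measured, 13 rose and 1 fell (63.6% called against 37.6% of all genes), with a median of 0.38. The LIF receptor gene Lifr (3.58, SE 0.09) and the oncostatin M receptor gene Osmr (2.43, SE 0.05) rose the most, and Irs2, which links the insulin receptor to PI3 kinase, fell by 0.40. Chosen after their values were seen, receptors matched to single members were the leptin receptor gene Lepr for Socs3, Egfr for Socs4 and Socs5 (1.88) and the growth hormone receptor gene Ghr for Socs2 (0.60), all higher in MR13. Other receptors of the list were not matched here, among them the gp130 gene Il6st (0.92) and Csf3r (0.11, limma adjusted p = 0.25). Lepr averaged 6.16 in MR13 and 4.09 in WTR-, where it lay below the 30th percentile of genes and was not shown to be above background, so the size of its rise is not known. For Socs1, Ifngr2 rose by 0.42, while Ifngr1 differed by 0.08 (adjusted p = 0.28). For Socs6 and Socs7, the insulin receptor gene Insr differed by 0.01 (adjusted p = 0.90) and Kit by 0.03 (adjusted p = 0.79). Kit averaged 5.47 in MR13 and 5.43 in WTR-, near the 30th percentile of genes. It was not shown to be above background, so a change of its transcript is not left out.

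Among the kinases and factors downstream, 6 of 9 measured JAK and STAT genes rose and 1 fell (77.8% called against 37.6% of all genes), with a median of 0.26. Stat3, the factor that Pias3 binds, rose by 1.44 (SE 0.06), Stat5a by 0.71 (SE 0.07), and Stat6, which IL-4 activates, fell by 0.23 (SE 0.05). The call of Tyk2 was lost without MR13 replicate 2 or 3 or WTR- replicate 1, and that of Stat2 without MR13 replicate 3 or WTR- replicate 2 (adjusted p = 0.052 to 0.067 in these 5 fits).

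Other genes induced by the STATs that raise Socs3, and Cish with Socs2, were counted in the same fit. Of 20 genes induced through STAT3, 15 rose and 2 fell (85.0% called against 37.6% of all genes, median 0.60). They included the acute-phase genes Saa3 (6.09, SE 0.07) and Lbp (5.22, SE 0.23), and the growth regulator Myc fell by 0.84. The WTR- values of Lbp were spread (6.34, 5.24 and 5.63). That of WTR- replicate 2 lay below the 30th percentile of genes on its array (5.50), so the size of the Lbp rise is uncertain. Bcl2l1 fell by 0.30, but its call was lost in every fit without 1 array except that without MR13 replicate 2 (adjusted p = 0.063 to 0.13 in the other 5). Of 16 genes induced through STAT5, 5 rose and 3 fell (50.0% called against 37.6% of all genes, median 0.08). The kinase gene Pim2 (1.62) and Id1 (1.10) rose, whereas the cyclin gene Ccnd2 (-2.65) and the milk protein gene Csn3 (-0.66) fell. Csn3 averaged 5.67 in WTR- and 5.01 in MR13, below the 30th percentile of genes, so the size of its fall is not known. Csn1s1, Csn2, Osm and Elf5 of this list, and Fgg of the STAT3 list, averaged below that percentile in both groups. Without the dimmest 30% of genes, 5 STAT5-induced genes were higher and 2 lower, where 54.8% of all remaining genes were called. How many genes of the list the filter left was not counted. The STAT3 and STAT5 lists share Pim1, Bcl6, Bcl2l1 and Ccnd1.

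**Figure D5:**
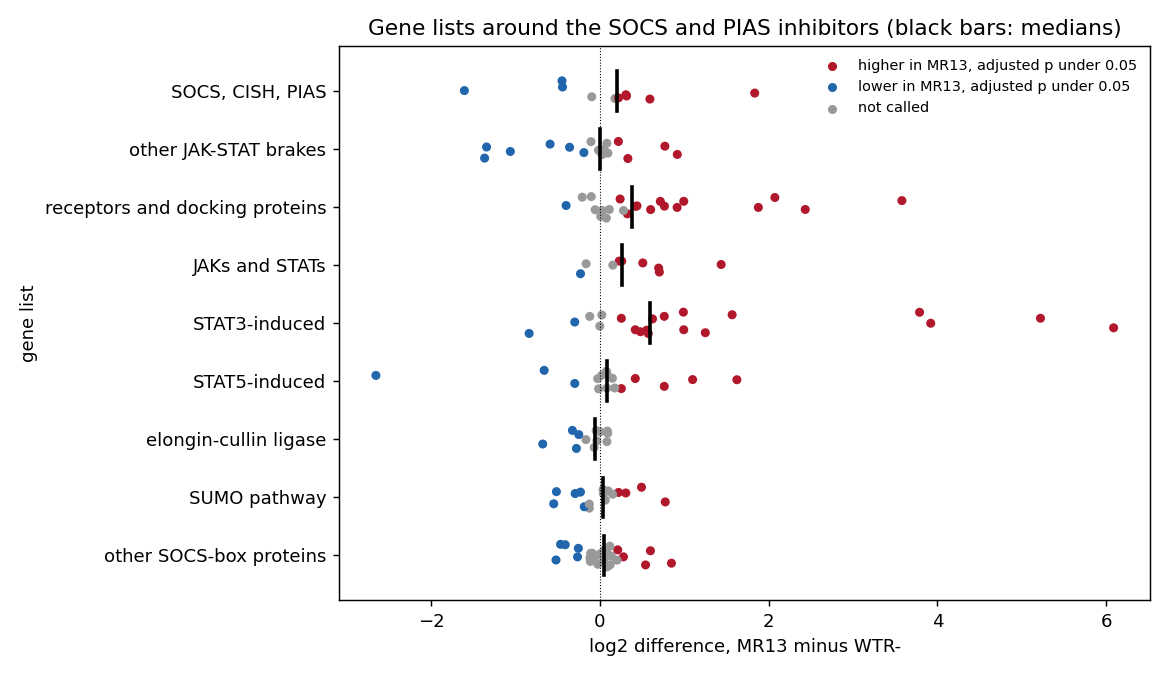
The x axis gives MR13 minus WTR- on the log2 scale for the measured genes of 9 lists (y axis), colors show whether the adjusted p was under 0.05, and black bars are medians. The SOCS, CISH and PIAS genes run from -1.60 to 1.84 around a median of 0.20, and the medians of the JAKs and STATs (0.26), receptors (0.38) and STAT3-induced genes (0.60) lie to the right of it.

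Brakes on JAK-STAT signaling outside the SOCS and PIAS families were divided as well. Of 16 measured, 4 rose and 6 fell (62.5% called against 37.6% of all genes), with a median of 0.0052. The receptor phosphatase gene Ptprj (0.92, SE 0.05) and the ubiquitin ligase gene Cblb (0.77, SE 0.06) rose. Usp18, which dampens the interferon receptor, fell by 1.36 and the ligase gene Cblc by 1.34. Other phosphatases of the list with a role on JAKs or their receptors, named after their values were seen, were divided. Ptpn6 rose by 0.22 (adjusted p = 0.013), and Ptpre fell by 0.19 (adjusted p = 0.014) but by 0.11 with an adjusted p of 0.11 after quantile normalization again. Ptpn1, Ptpn2 and Ptpn11 differed by 0.08, -0.10 and 0.03 and did not pass the test.

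The machinery through which SOCS and PIAS proteins act was counted in the same way. Of 12 measured genes of the elongin-cullin ligase and its activation by NEDD8, none rose and 4 fell (33.3% called against 37.6% of all genes, median -0.05). At an unadjusted p under 0.05 no gene of this list was higher either. Nae1, a subunit of the NEDD8-activating enzyme, fell by 0.68 (SE 0.05) and Cul2 by 0.32 (SE 0.05). Of the core partners of the SOCS box, named after their values were seen, Elob (0.0051), Eloc (-0.03) and Cul5 (0.09) did not pass the test. Rnf7, the RING partner of CUL5, fell by 0.28 (adjusted p = 0.031), but its call was lost without MR13 replicate 1 or WTR- replicate 1 or 3, after centring of each array and in the methods' t-test (adjusted p = 0.055 to 0.14). Of 16 genes of the SUMO pathway, 4 rose and 5 fell (56.2% called against 37.6% of all genes, median 0.04). The SUMO share was near the 54.8% of all genes called once the dimmest 30% were left out. Senp1, a SUMO protease, rose by 0.78 and the PIAS-like ligase gene Zmiz1 by 0.49, while the proteases Senp5 and Senp2 fell by 0.55 and 0.51.

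By the distance between 6-array profiles, each centered on its WTR- mean, the genes most like Socs3 were Bst1 (root mean square distance 0.044 on the log2 scale), Rgl1 (0.055) and Pdgfra (0.059). They differed by 1.79, 1.80 and 1.82, against 1.84 for Socs3, and the likeness rests mainly on the size of the group difference.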

How the data were processed

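Total RNA was labelled with biotin and hybridised to whole-transcript expression arrays of the mouse. The authors deposited normalized log2 values, whose scale was read from their range (2.42 to 14.4). Their processing notes name affy and limma, and neither versions nor the background correction and summarization are given in the sources used here. Detection calls were not used, so differences of dim genes can be understated, and for arrays their number limits the precision.

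Groups came from the sample titles. The annotation paired 21780 of 28350 probe sets with 1 symbol, and the brightest probe set of each gene left 19933 genes. Symbols were checked against RefSeq (GRCm38.p6). All 6 arrays were fitted with limma 3.58.1 in R 4.3.3 (lmFit, eBayes, two-sided), with Benjamini-Hochberg adjustment over all genes and calls at an adjusted p under 0.05. The script was tested on simulated data.

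The members, gene lists and tests were chosen with earlier results of these data known. A further list of induced genes is not reported here. For each list, the genes named were the 2 called genes with the largest rise and the 2 with the largest fall whose groups did not overlap, and others are stated as chosen after their values were seen. The profile distance was computed for the member with the largest difference. Alternatives were another normalization, a filter on dim genes, other probe sets, another prior, a replicate block, each array left out, the methods' t-test and a 1.5-fold minimum.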

Additional observations from a re-analysis of the deposited data

How the results depend on the processing

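Of the 10 inhibitor genes, 5 higher and 3 lower in MR13 were counted under every alternative run except 3, and with each array left out the counts stayed at 5 and 3. The 1.5-fold minimum left 2 higher and 1 lower, as it requires larger differences. With a gene's probe sets averaged 4 were higher, because Socs6 was not called (0.13, adjusted p = 0.082), and after quantile normalization 6 were higher, because Socs1 was (0.25, adjusted p = 0.029). With each array left out, Socs3 differed by 1.81 to 1.86, Socs2 by -1.66 to -1.56 and Pias1 by 0.58 to 0.61. With the replicate number as a block the counts were 5 and 3 and 37.3% of all genes were called, against 37.6% without it. Deviations of MR13 and WTR- arrays of the same number correlated at 0.13, -0.0012 and 0.18. MR13 replicates 1 and 3 correlated most with the WTR- array of their own number, and MR13 replicate 2 with WTR- replicate 1 (0.053). The main fit did not take the numbers to pair the arrays, and whether they do is not settled. The methods' t-test is the study's general test between groups, while the processing notes of the arrays name limma. This t-test called 8 members at an unadjusted p under 0.05 and 8 after Benjamini-Hochberg adjustment (8140 and 6524 of all genes).

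For the other lists, the 1.5-fold minimum gave 3 higher and 0 lower JAK and STAT genes, 0 lower receptors, 1 lower ligase gene, 2 higher and 0 lower SOCS-box genes, 1 higher and 0 lower SUMO genes, 2 higher among the other brakes, 1 lower STAT3-induced and 3 higher STAT5-induced genes, and 11.0% of all genes. The trended robust prior gave 2 lower receptors. Lower STAT3-induced genes numbered 1 after quantile normalization, centring or the methods' t-test, which also gave 3 higher SOCS-box genes. With each array left out, lower receptors numbered 1 to 2 (2 without MR13 replicate 2) and lower STAT3-induced genes 1 to 2 (1 without MR13 replicate 1 or any WTR- replicate). The cause was not tested. Whether Cish, the dimmest member, lies above background is not known from these values.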

Other observations

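Beside the SOCS proteins, other families carry a SOCS box, among them the ankyrin repeat (ASB), SPRY domain (SPSB) and WD repeat (WSB) proteins. Of 27 measured genes, 5 rose and 5 fell in MR13 (37.0% called, against 37.6% of all genes), with a median log2 difference of 0.05. Asb8 rose by 0.85 (SE 0.05) and Spsb1, which acts on inducible nitric oxide synthase, by 0.60 (SE 0.07). Wsb1 fell by 0.52 (SE 0.05) and Spsb4 by 0.47 (SE 0.05). The calls of Asb3 and Asb9 were each lost under several alternatives, Asb9 without any single array except WTR- replicate 2 (adjusted p = 0.063 to 0.14).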
